A study of Homo sapiens with 6 samples.

Results

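A group of 10 miRNAs widely used as markers of blood cells and blood vessels was followed in small RNA libraries of MIO-M1 cells and of the extracellular vesicles (EV) these cells released. They were taken by name as 10 of the 2576 mature miRNAs in the deposited tables and fall into 3 lineages. The 4 erythroid members were hsa-miR-451a, hsa-miR-144-5p, hsa-miR-144-3p and hsa-miR-486-5p. The 4 leukocyte members were hsa-miR-142-5p, hsa-miR-142-3p, hsa-miR-150-5p and hsa-miR-223-3p, and the 2 endothelial members were hsa-miR-126-5p and hsa-miR-126-3p, the arms of one precursor. The rule goes by name and uses no measured value. However, the names were chosen with earlier results of these data known, so counts of members that differ are not independent of these data. Of the 10, 8 had at most 3 counts in every whole cell library, and 5 were counted in all 3 EV libraries.

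MIO-M1 is an established human Müller glial cell line, wild type according to the labels, derived from the retina. Whole cell samples were 3 preparations at passages 22, 24 and 26, here called whole cell replicates 1, 2 and 3, and EV samples were 3 preparations at passages 23, 25 and 27, called EV replicates 1, 2 and 3, and the values of a fraction are given in that order. All cultures were grown in DMEM with 10% FCS and antibiotics. For EV, the labels state that washed cultures were moved to serum-free DMEM, whereas the methods name vesicle-depleted medium, and both sources also differ in the number of washes and the hours of conditioning. EV were collected by steps of centrifugation and, according to the methods, treated with RNase A while intact, and their RNA was extracted with an exosome RNA kit, whereas cell pellets went through a total RNA kit. Fraction therefore cannot be told apart from extraction kit, conditioning medium or RNase A treatment in any comparison here. No passage was sampled in both fractions, although the passages alternate between them, and passage was not fitted. The labels name one cell line and no separate cultures beyond the passage, so the spread between replicates is that between preparations of this line.

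A mature miRNA is cut from one arm (5p or 3p) of a hairpin precursor and guides the RNA-induced silencing complex to messages that pair with its seed, bases 2 to 8. One arm usually accumulates and the other, the passenger, is mostly degraded. mir-144 and mir-451a are neighbours in one erythroid transcript, and miR-451a is unusual in that Argonaute 2, not Dicer, cuts it from its hairpin, so that it has a single arm. mir-142, mir-150 and mir-223 are expressed in blood-forming cells, and mir-126 is expressed in endothelial cells from an intron of EGFL7, a gene for a secreted vascular protein.

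Mature sequences of 7 of the 10 members were found in RefSeq (GRCh38.p14) and are shown because each arm is counted separately and because the seeds show whether members could share targets. Capitals mark the seed, and each line runs 5′ to 3′.
miR-144-5p: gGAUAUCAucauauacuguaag
miR-144-3p: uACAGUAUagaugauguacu
miR-142-5p: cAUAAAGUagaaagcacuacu
miR-142-3p: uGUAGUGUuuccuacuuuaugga
miR-223-3p: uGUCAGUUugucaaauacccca
miR-126-5p: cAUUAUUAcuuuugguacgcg
miR-126-3p: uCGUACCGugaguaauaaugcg
The other members, miR-451a, miR-486-5p and miR-150-5p, are given by name. The 7 seeds all differed from each other. The seed of miR-142-5p was shared with miR-5590-3p, which had 0 counts in all 6 libraries. Bases 2 to 7 of miR-144-3p were shared with miR-101-3p, an abundant miRNA with mean levels of 4121 CPM in EV and 271.2 CPM in whole cells, where CPM is counts per 1000000 of the library's total. miR-101-3p gave 164, 730 and 271 counts in the whole cell libraries and 3301, 10236 and 14575 in the EV libraries, and rose in EV by a log2 value of 3.97 (SE 0.39, adjusted p = 0.00209 in edgeR). The SE of a log2 fold change is here its size divided by the square root of the F statistic of its edgeR test. The GC content of the 7 sequences was at most 45.5%, in miR-126-3p.

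Total counts lay between 396025 and 3990900 for the whole cell libraries and between 1225541 and 3134561 for the EV libraries. A count of 0 allows up to 3 counts, or 7.58, 0.752 and 2.40 CPM in the whole cell libraries and 2.45, 1.47 and 0.957 CPM in the EV libraries, and this limit covers counting error only. Low counts were rare in EV: 25 to 44 of the 329 to 431 miRNAs counted in an EV library had 1 to 9 counts, against 298 to 541 of 586 to 1058 in a whole cell library. The members followed this, as 8 of their 30 values in EV were 0 and the smallest of the others was 18, whereas 19 of their 30 values in whole cells were 0 and 5 were between 1 and 3. A value of 0 in one EV library beside many counts in another was therefore common among these miRNAs. Counts in bulk libraries are shares of a library, so that fewer cells of a type and less RNA per cell cannot be told apart, nor can the number of vesicles and the content of each.

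**Figure D1:**
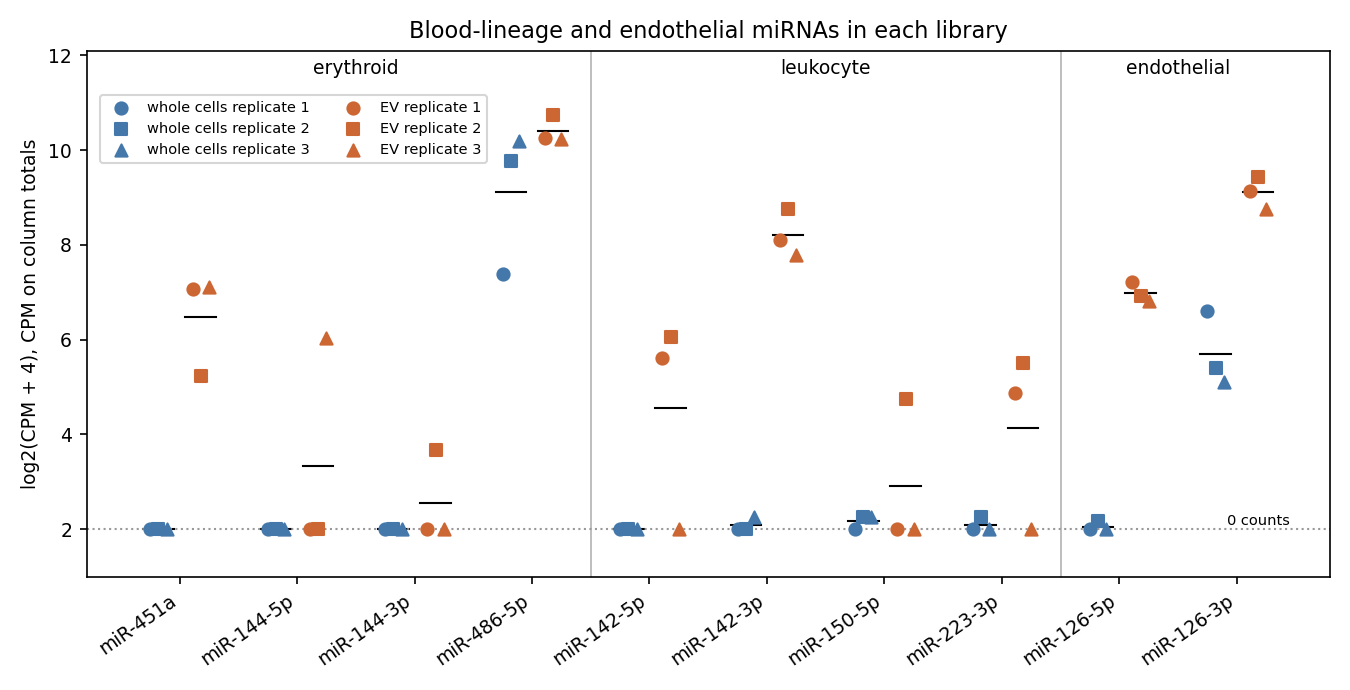
Level of each member in each library as log2(CPM + 4), with CPM on column totals, whole cells in blue, EV in orange, one symbol per replicate and a bar for the group mean; the dotted line is a count of 0. Only miR-486-5p and miR-126-3p stand clear of the dotted line in whole cells, and the EV points of 5 members lie above all of their whole cell points.

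Of the 10 members, 5 passed a filter of 5 CPM in 3 or more libraries and were tested across all 430 such miRNAs: miR-451a, miR-486-5p, miR-142-3p, miR-126-5p and miR-126-3p. In CPM on column totals, the 3 EV libraries lay above the 3 whole cell libraries for all 5 of these, whereas 20.5% of the 430 miRNAs showed this. With an adjusted p below 0.01 and a log2 fold change of at least 2.5 (edgeR's quasi-likelihood test, Benjamini-Hochberg adjustment over the 430), miR-142-3p, miR-126-5p and miR-126-3p were called higher in EV, that is 3 of 10 members, and 4.42% of all 430 were called in this direction. However, miR-451a, miR-142-3p and miR-126-5p were under 5 CPM in every whole cell library and so passed the filter through EV alone, which means that they had to differ. Without the filter all 10 could be tested among 1188 miRNAs, and 4 were called, with miR-451a as the addition, against 1.94% of the 1188. DESeq2 called the same 4 among the 430, of which it called 9.77% higher in EV.

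Among the erythroid members, hsa-miR-451a was counted in every EV library and in no whole cell library. It had 0 counts in all 3 whole cell libraries and 160, 69 and 424 counts in the EV libraries, which is 130.6, 33.8 and 135.3 CPM. EV replicate 2 was the low one, and the highest level was 3.996 times the lowest. The mean in EV was 99.9 CPM ± 57.2 (SD, n = 3), at least 27.9-fold higher than the mean limit of 3.57 CPM that the counts of 0 allow in whole cells. The shallowest library raises this mean limit most, and the fold is not comparable with the ratios from summed counts given for other members. The fitted log2 fold change of miR-451a, 10.70 (SE 1.88), is no bound, and with 0 counts in whole cells this SE is no measure of its precision. Its edgeR adjusted p of 0.0120 missed the limit of 0.01. The adjusted p was 3.09e-07 in DESeq2 and 0.000211 in edgeR without the filter, and it lay between 0.0117 and 0.0397 in the other alternatives. In the tables, whose header names no genome build, miR-451a lies on chromosome 17 from 27188421 to 27188442 on the minus strand. GRCh38 has its precursor from 28861369 to 28861440, so the coordinates given here for the members are not those of GRCh38. GENCODE 29 (GRCh38) places the miR-451a precursor in an exon of the lincRNA AC024267.1, opposite MIR451B, whose mature miR-451b had 0 counts in all 6 libraries.

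The arms of mir-144, which also lies in an exon of that lincRNA, were each found in a single EV library. hsa-miR-144-5p (chromosome 17, 27188601 to 27188622, minus strand) had 192 counts, 61.3 CPM, in EV replicate 3 and 0 in the other 5 libraries. hsa-miR-144-3p (27188566 to 27188585) had 18 counts, 8.83 CPM, in EV replicate 2 and 0 elsewhere. The arms thus came from different libraries, and EV replicate 1, with 160 counts of miR-451a, held neither. Over the group, miR-144-5p in EV was at least 5.71-fold above the limit in whole cells, a value that rests on EV replicate 3 alone, and the mean of miR-144-3p in EV, 2.94 CPM, was under that limit. In EV replicate 3 the count of miR-451a was 2.21 times that of miR-144-5p (95% exact counting interval 1.86 to 2.63), and in EV replicate 2 it was 3.83 times that of miR-144-3p (2.26 to 6.84). In edgeR without the filter, the adjusted p was 0.0396 for miR-144-5p and 0.0718 for miR-144-3p, neither below 0.01. The neighbouring miR-4732-5p and miR-4732-3p had 0 counts in all libraries.

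hsa-miR-486-5p, which is abundant in red cells and also made in muscle from an intron of ANK1, was the exception among the 10 in that it was abundant in both fractions. It had 65, 3493 and 1454 counts in the whole cell libraries, or 164.1, 875.2 and 1161 CPM. In the EV libraries it had 1491, 3489 and 3751 counts, or 1217, 1711 and 1197 CPM. The EV libraries were all higher, but whole cell replicate 3 came within reach of EV replicate 3, and whole cell replicate 1 stood far below the rest. With the TMM scaling of the edgeR fit, whole cell replicate 3 and EV replicate 3 were both at 1296 CPM after rounding. The means were 1375 CPM ± 292 (SD, n = 3) for EV and 734 CPM ± 513 (SD, n = 3) for whole cells, a ratio of 1.87, and the log2 fold change was 0.78 (SE 0.70, adjusted p = 0.487 in edgeR). Without whole cell replicate 1 the log2 fold change was 0.16. By rank, miR-486-5p was between 61 and 66 in the EV libraries and at 146, 80 and 69 in the whole cell libraries. GENCODE 29 annotates 2 copies of its precursor, MIR486-1 and MIR486-2, which overlap on opposite strands within an intron of ANK1, so the counts cannot be assigned to either copy. The ratio of miR-451a to miR-486-5p was 0.107, 0.0198 and 0.113 in the EV libraries and 0 in all whole cell libraries.

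Among the leukocyte members, the 3p arm of mir-142, a miRNA found throughout the blood-forming lineages, was the one with counts in all EV libraries. hsa-miR-142-3p (chromosome 17, 56408606 to 56408628, minus strand) gave 0, 0 and 1 counts in the whole cell libraries and 331, 878 and 680 in the EV libraries. In EV these are 270.1, 430.7 and 216.9 CPM, within 1.99-fold of each other, and far above any whole cell library. From counts summed over each group, the ratio of EV to whole cells was 1665, with a 95% counting interval from 298.4 to 65790 because it rests on 1 whole cell count. The log2 fold change was 9.95 (SE 1.29, adjusted p = 0.00371 in edgeR), a fitted value that is no bound. It was 12.27 without whole cell replicate 3, which holds the only count in whole cells, and 8.83 without whole cell replicate 2. The call held in 2 of the 6 fits that left out 1 library, those without whole cell replicate 2 and without EV replicate 3, and the adjusted p was between 0.00621 and 0.0160 in all 6. hsa-miR-142-5p (56408644 to 56408664) had 55, 127 and 0 counts in the EV libraries, or 44.9, 62.3 and 0 CPM, and 0 in whole cells. The count of 0 in EV replicate 3 makes the groups overlap, although the mean in EV was at least 10.0-fold above the whole cell limit. In edgeR without the filter its adjusted p was 0.0183. GENCODE 29 places the precursor in an exon of AC004687.1, with the antisense transcript TSPOAP1-AS1 on the other strand.

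hsa-miR-223-3p, typical of granulocytes and monocytes, was at 0 in EV replicate 3, like miR-142-5p. It had 31, 85 and 0 counts in the EV libraries, or 25.3, 41.7 and 0 CPM, and 0, 3 and 0 counts in the whole cell libraries. The summed ratio was 34.1 (95% counting interval 11.4 to 168), the groups overlapped, and in edgeR without the filter the adjusted p was 0.0775. It lies on chromosome X from 65238779 to 65238800 on the plus strand, in an exon of AL034397.3 according to GENCODE 29. hsa-miR-150-5p, typical of mature B and T lymphocytes, was found in EV replicate 2 alone, with 47 counts or 23.1 CPM, and had 0, 3 and 1 counts in the whole cell libraries. Its summed ratio was 10.4 (3.79 to 39.6), but without EV replicate 2 the difference of the means was -0.517 CPM. Its adjusted p was 0.251 in edgeR without the filter. It lies on chromosome 19 from 50004089 to 50004110 on the minus strand, outside any other annotated gene. The passenger arms of both precursors, miR-223-5p and miR-150-3p, had 0 counts in all libraries.

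Among the endothelial members, both arms of mir-126 were higher in every EV library. hsa-miR-126-3p, which promotes vascular growth signalling by targeting its inhibitors SPRED1 and PIK3R2, had 37, 154 and 38 counts in the whole cell libraries, or 93.4, 38.6 and 30.4 CPM. In the EV libraries it had 686, 1412 and 1337 counts, or 559.8, 692.6 and 426.5 CPM. The lowest EV library was well above the highest whole cell library, which was the shallowest one. The means were 560 CPM ± 133 (SD, n = 3) and 54.1 CPM ± 34.3 (SD, n = 3), a 10.3-fold difference, and the log2 fold change was 3.45 (SE 0.54, adjusted p = 0.00661 in edgeR). Its rank rose from 175, 236 and 251 in the whole cell libraries to 93 or 94 in the EV libraries. The adjusted p was between 0.00961 and 0.0380 with 1 library left out, below 0.01 without whole cell replicate 1 and without EV replicate 3.

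hsa-miR-126-5p (chromosome 9, 139565068 to 139565088, plus strand) gave 0, 2 and 0 counts in the whole cell libraries and 178, 240 and 341 in the EV libraries. In EV these are 145.2, 117.7 and 108.8 CPM, with the highest 1.33 times the lowest, the narrowest range among the members counted in all EV libraries. The summed ratio was 334 (95% counting interval 92.3 to 2767), and the log2 fold change was 8.45 (SE 1.34, adjusted p = 0.00661 in edgeR). The fitted value is no bound and was 10.66 without whole cell replicate 2, which holds both whole cell counts. With 1 library left out, the adjusted p was below 0.01 in 1 fit, that without EV replicate 3, and between 0.00684 and 0.0380 in all 6. miR-126-3p lies at 139565105 to 139565126 on the same strand, and GENCODE 29 places the precursor in an intron of EGFL7. For every member counted in all EV libraries the two-sided exact permutation test on CPM gave p = 0.1, which is the smallest value that 3 against 3 libraries allow.

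The arms of mir-126 took different shares of the counts in the 2 fractions. The 5p arm made up 0% of 37 counts, 1.28% of 156 and 0% of 38 in the whole cell libraries, with exact 95% binomial (Clopper-Pearson) intervals reaching 9.49%, 4.55% and 9.25%. In the EV libraries it made up 20.6% of 864 counts (17.95% to 23.4%), 14.5% of 1652 (12.9% to 16.3%) and 20.3% of 1678 (18.4% to 22.3%). The EV intervals lay above the whole cell intervals, but all these intervals cover counting error only and treat reads as independent, which amplified reads are not. The mean share was 18.5% ± 3.43 (SD, n = 3) for EV and 0.427% ± 0.740 (SD, n = 3) for whole cells, a difference of 18.1 percentage points (two-sided exact permutation test, p = 0.1, the smallest possible). The EV libraries had the higher 5p share in 16.9% of the 124 arm pairs with at least 30 counts in every library, and the shift of mir-126 ranked 17 among the 124, whose median absolute shift was 2.22 percentage points.

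The other precursors gave different pictures. mir-142 in EV resembled mir-126, with the 5p arm at 14.2% (10.9% to 18.1%) in EV replicate 1 and 12.6% (10.6% to 14.9%) in EV replicate 2, but in EV replicate 3 the share was 0% of 680 counts (upper bound 0.541%). The spread between EV libraries for this precursor was thus wider than the counting intervals. The 5p share of mir-144 was 0% of 18 counts (upper bound 18.5%) in EV replicate 2 and 100% of 192 (lower bound 98.1%) in EV replicate 3. mir-486 was almost wholly 5p in both fractions, with shares of at least 99.5% in all 6 libraries and a mean difference of -0.0928 percentage points between EV and whole cells (two-sided exact permutation test, p = 1). miR-486-3p gave 0, 2 and 3 counts in the whole cell libraries and 0, 19 and 0 in the EV libraries.

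**Figure D2:**
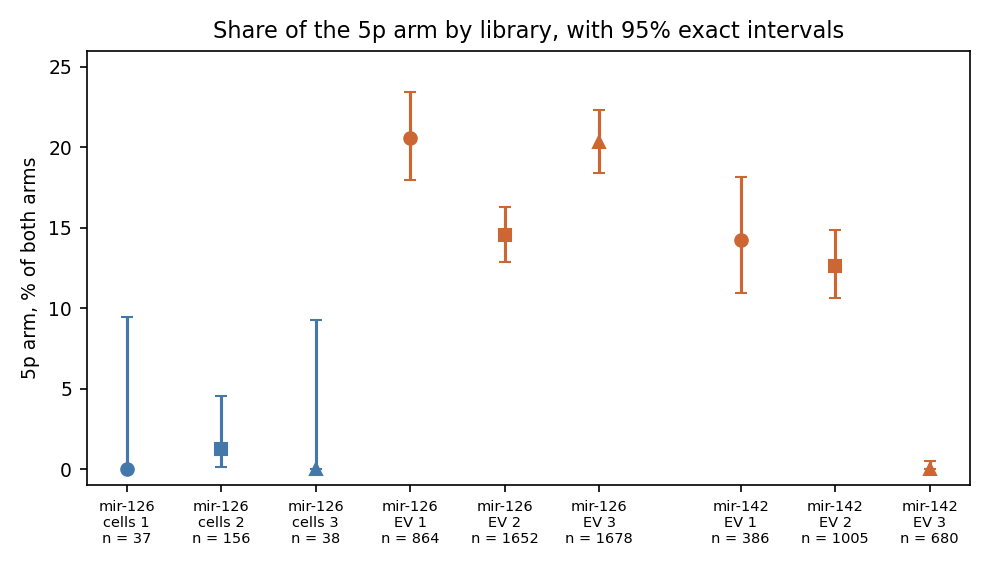
Share of the 5p arm among the counts of both arms (%) for mir-126 in all 6 libraries and for mir-142 in the 3 EV libraries, with exact 95% intervals and the number of counts under each point; whole cells are blue and EV orange. The mir-126 share lies between 14.5% and 20.6% in EV and at or below 1.28% in whole cells, and the mir-142 share is 0% in EV replicate 3.

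Counts were also summed over the members of each lineage. The endothelial members summed to 93.4, 39.1 and 30.4 CPM in the whole cell libraries and to 705, 810 and 535 CPM in the EV libraries. The leukocyte members summed to 0, 1.503 and 1.597 CPM in whole cells and to 340, 558 and 217 CPM in EV. The erythroid members without miR-486-5p summed to 0 in all whole cell libraries and to 131, 42.7 and 196 CPM in EV. Without miR-486-5p, EV replicate 2 was thus highest for the leukocyte and endothelial sums and lowest for the erythroid sum, and EV replicate 3 was the reverse. With miR-486-5p, the erythroid sums were 164, 875 and 1161 CPM in whole cells and 1347, 1754 and 1393 CPM in EV, so that EV replicate 2 was then highest for all 3 lineages and this single miRNA held most of the erythroid counts in every library. These sums are a description and were not tested.

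**Figure D3:**
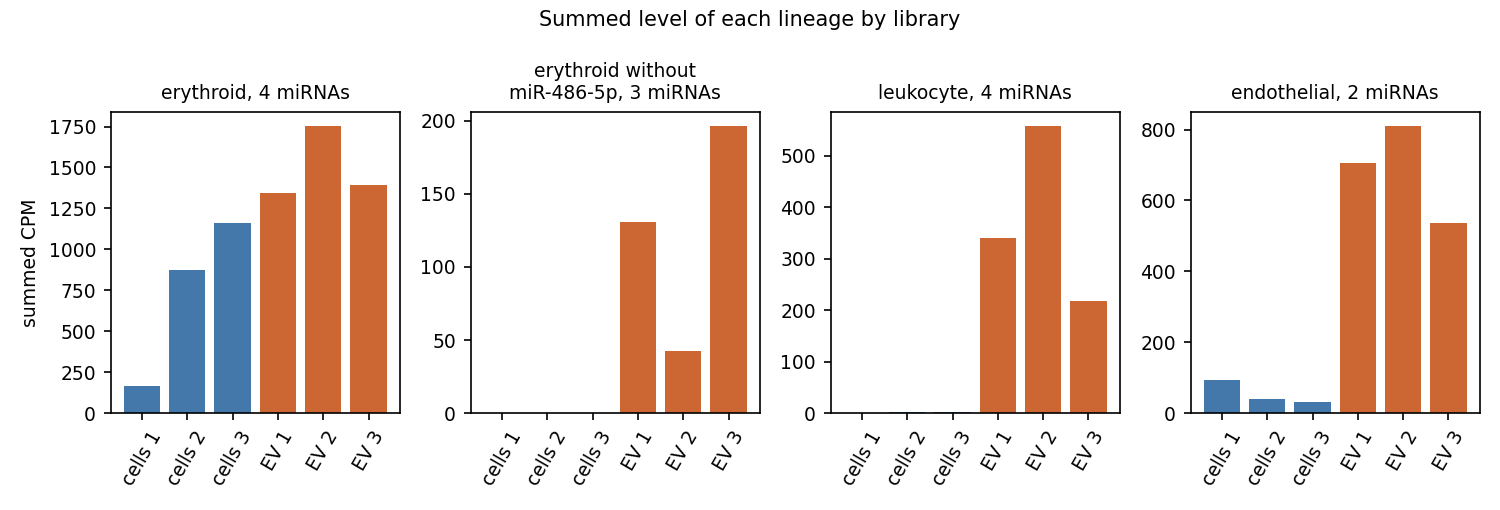
Summed CPM of the members of each lineage in each of the 6 libraries, whole cells in blue and EV in orange, with a separate linear scale in each panel. Without miR-486-5p, EV replicate 2 has the lowest erythroid sum (42.7 CPM) and EV replicate 3 the highest (196 CPM), whereas the leukocyte and endothelial sums are highest in EV replicate 2.

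Ratios within a library, which do not depend on its total, set the lineages side by side. The count of miR-126-3p was 2.07, 1.61 and 1.97 times that of miR-142-3p in the EV libraries. The counting interval of EV replicate 2, 1.477 to 1.752, lay below those of EV replicate 1 (1.815 to 2.37) and EV replicate 3 (1.791 to 2.16). miR-142-3p was 2.07, 12.7 and 1.604 times miR-451a in the same libraries, and EV replicate 2 stood further apart here, with a counting interval of 9.95 to 16.5. miR-142-3p was 10.7 and 10.3 times miR-223-3p in EV replicates 1 and 2, and in EV replicate 3, where miR-223-3p was 0, the ratio was above 184 (lower bound of the exact interval). miR-486-5p was 2.17, 2.47 and 2.81 times miR-126-3p in the EV libraries and 1.76, 22.7 and 38.3 times in the whole cell libraries.

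By mean level in EV the members ran from miR-486-5p (1375 CPM) through miR-126-3p (560 CPM), miR-142-3p (306 CPM), miR-126-5p (124 CPM) and miR-451a (99.9 CPM) to miR-142-5p (35.7 CPM), miR-223-3p (22.3 CPM), miR-144-5p (20.4 CPM), miR-150-5p (7.68 CPM) and miR-144-3p (2.94 CPM). Each count is 1 read of a mature miRNA of similar length, so no length scaling was applied. The ranges of miR-486-5p and miR-126-3p did not overlap over the EV libraries, nor did those of miR-142-3p and miR-126-5p. miR-126-3p and miR-142-3p overlapped by a narrow margin, and miR-126-5p, miR-451a and all members of lower mean overlapped with the next in the order. In whole cells the order was miR-486-5p, miR-126-3p and then 8 members at or under the limit of detection.

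**Figure D4:**
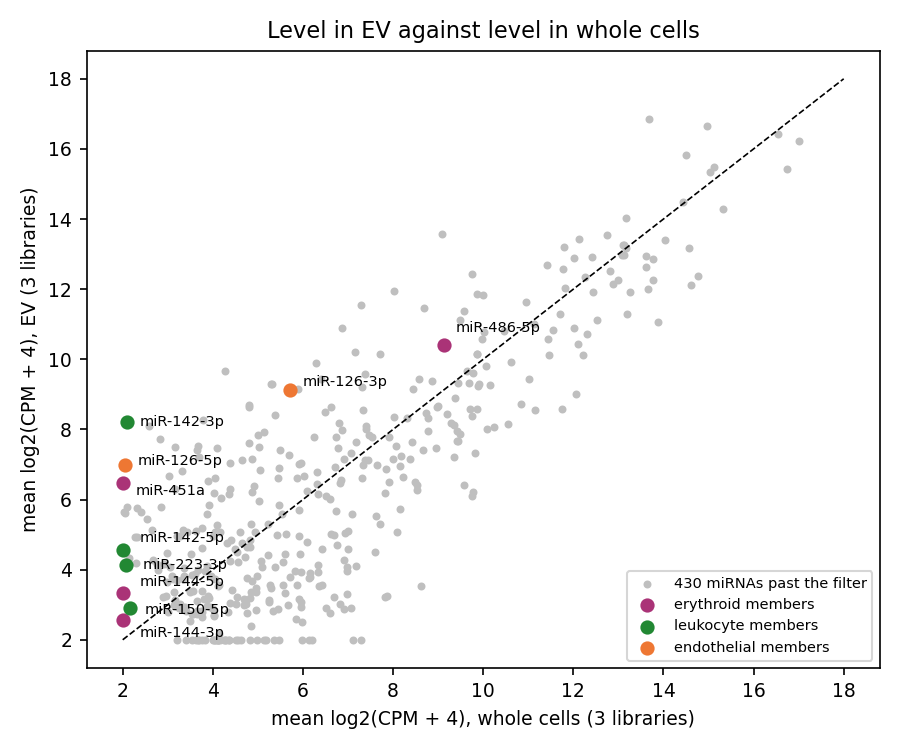
Mean log2(CPM + 4) over the 3 EV libraries against the mean over the 3 whole cell libraries, with the 430 miRNAs past the filter in grey, the members coloured by lineage and the dashed line at equal levels. All members but miR-486-5p and miR-126-3p lie at the left edge, where whole cell counts are 0 or nearly so, and miR-486-5p, at a ratio of 1.87, lies near the line.

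The miRNAs most like each tested member in their pattern over the 6 libraries were found by the Euclidean distance of log2(CPM + 4), centred on each miRNA's mean. For miR-126-3p they were miR-21-5p (distance 0.448), an abundant miRNA of many cell types, and miR-29b-3p (0.656). For miR-451a they were miR-1246 (1.14) and miR-411-5p (1.18), for miR-126-5p they were miR-590-3p (1.20) and miR-411-5p (1.29), and for miR-142-3p they were miR-9-3p (1.47) and miR-590-3p (1.53). For miR-486-5p they were miR-193b-5p (1.03) and miR-760 (1.08), both of which were also lowest in whole cell replicate 1, with 2 and 1 counts. The closest match of miR-126-3p was thus nearer than that of any other member. Members were left out as candidates, so likeness between members was not tested. With log2(CPM + 1), 6 of the 10 neighbours were retained.

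Other miRNAs of the same blood and vascular cell types, which are also made by many other cells, were tested in the same fit. All 8 other red cell miRNAs passed the filter, and edgeR called 0 of them, with 3 higher and 1 lower at an unadjusted p below 0.05, while DESeq2 called 1, which was lower. Their log2 fold changes ran from -2.51 for miR-92a-3p (SE 0.46, adjusted p = 0.0107 in edgeR) to 2.26 for miR-182-5p (SE 0.39, adjusted p = 0.00872 in edgeR), with a median of 0.08. Of the 8 other leukocyte miRNAs, edgeR also called 0, with 1 higher and 2 lower at an unadjusted p below 0.05, and DESeq2 called 1, again lower. They ran from -2.60 for miR-181a-5p (SE 0.56, adjusted p = 0.0121 in edgeR) to 2.61 for miR-146a-5p (SE 1.99, adjusted p = 0.411 in edgeR), with a median of 0.36. Over all 430 miRNAs tested the median was -0.23. Of these, edgeR called 4.42% higher and 1.40% lower, and 17.2% were higher at an unadjusted p below 0.05. In a list of 8, a count of 0 called is close to these shares. The share of the 430 that was lower at an unadjusted p below 0.05 was not counted. At an adjusted p below 0.05 in edgeR, 60 of the 430 were lower, beside 1 of the red cell and 2 of the leukocyte miRNAs. DESeq2 called 30 of the 430 lower.

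Of the 8 other vascular miRNAs, 7 passed the filter, with a median of 0.65. miR-10b-5p (log2 fold change 2.73, SE 0.34) and miR-143-3p, a smooth muscle miRNA (2.85, SE 0.35), were called higher, both at an edgeR adjusted p of 0.00331, whereas DESeq2 called 1 miRNA of this list higher. miR-145-5p, from the same cluster as miR-143-3p, was called lower, with 67, 532 and 135 counts in the whole cell libraries and 0 in all EV libraries, and 1.40% of the 430 were called lower. Among 16 miRNAs typical of other organs, such as liver, muscle and epithelia, 10 passed the filter, with a median of 2.64, and 6 of these had all EV libraries above all whole cell libraries. miR-1, a heart and skeletal muscle miRNA, was the one that edgeR called, with 3, 19 and 4 counts in the whole cell libraries and 104, 683 and 620 in the EV libraries (log2 fold change 5.30, SE 0.89, adjusted p = 0.00858 in edgeR). DESeq2 called 5 miRNAs of this list higher and 0 lower, beside 9.77% of the 430 that it called higher. miR-200b-3p, an epithelial miRNA, had the lowest value of that list and 0 counts in all EV libraries, against 8, 32 and 13 in the whole cell libraries.

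All 8 miRNAs on a list for Müller glia passed the filter, with a median log2 fold change of 0.03. No level was compared with that of another cell type, so the labelled cell type was not tested. miR-9-3p, the passenger arm of a neural miRNA, was called higher in EV (5.80, SE 0.58, adjusted p = 0.00209 in edgeR), while at an unadjusted p below 0.05 edgeR had 1 of the 8 higher and 4 lower, and DESeq2 called 1 higher and 1 lower. At an adjusted p below 0.05 in edgeR, 2 of the 8 were lower, beside 60 of all 430, and DESeq2 called 30 of the 430 lower. The lowest value of the list for Müller glia was that of miR-181a-5p, which is also on the leukocyte list. The lists overlap in function with many tissues, and their part in the values of the members was not tested.

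**Figure D5:**
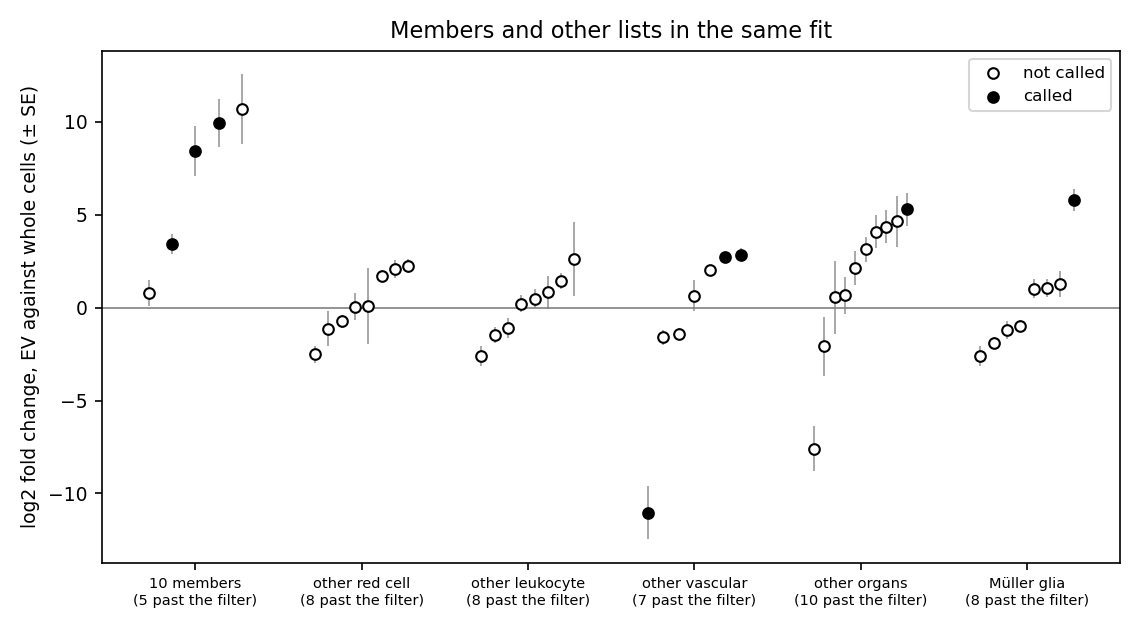
Log2 fold change of EV against whole cells for the members and for 5 other lists, with miRNAs past the filter only and called ones filled. Error bars are the SE derived from the F statistic of the edgeR test. Of the 5 members shown, 3 passed the filter through EV alone and so had to lie high, whereas the medians of the other lists run from 0.03 for Müller glia to 2.64 for other organs.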

How the data were processed

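Adapter-trimmed reads were aligned and assigned to mature miRNAs with featureCounts 1.5.0-p1 by the authors, who deposited one table of raw counts per library, without normalization. The file headers name miRBase 20, Bowtie 1 and strand setting 1, while the methods and labels name Bowtie2. A genome build is not given in the sources used here, but the coordinates of the members are not those of GRCh38. CPM was computed on column totals. A filter of 5 CPM in 3 or more of the 6 libraries was applied before testing with edgeR 4.0.16 (TMM, quasi-likelihood) in R 4.3.3, with DESeq2 1.42.0, other scalings, other filters, a GC trend and each library left out as alternatives. Calls required Benjamini-Hochberg adjusted p values under 0.01 and a log2 change of 2.5 or more in size. Shares have exact 95% binomial intervals. Log2 values used a pseudocount of 4. Each SE of a log2 fold change was derived from the quasi-likelihood F statistic and is not a separate estimate of precision. Members and lists were chosen with earlier results of these data known. The text names all members, the extreme and called miRNAs of each list, the 2 nearest by pattern and the most abundant seed relatives.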

Additional observations from a re-analysis of the deposited data

How the results depend on the processing

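The number of members called, 3 with TMM scaling in edgeR, was 3 with library totals, with upper-quartile factors, with a 1 CPM filter and after removing a GC trend, 2 with RLE factors, and 4 with DESeq2, without a filter, and at an adjusted p below 0.05 with or without the fold limit. It ranged from 0 to 3 when a single library was left out: 3 without EV replicate 3, 1 without whole cell replicate 1 (miR-126-3p) or 2 (miR-142-3p), and 0 without whole cell replicate 3, EV replicate 1 or EV replicate 2. Over all 430 miRNAs these fits called 22, 13, 6, 0, 7 and 0 higher, in the same order, so that nothing at all was called without whole cell replicate 3 or EV replicate 2. In the 3 fits with 0 members called, edgeR gave 4 of the 5 tested members an unadjusted p below 0.05, beside 12.3%, 16.7% and 17.0% of all 430 that were higher at that level. Of these 5 members, 3 passed the filter through EV alone and so had to differ. No other tool was run on these 3 fits. All 63 alternative log2 fold changes of the 5 tested members were above 0, and 14 fell short of a call that TMM scaling had given, while 2, both of miR-451a, gained one. Over all 430 miRNAs, edgeR called 19 higher and 6 lower and DESeq2 42 and 30. RLE gave 14 and 10, library totals 21 and 16 and upper-quartile factors 20 and 18. The 1 CPM filter gave 24 and 59 of 545 miRNAs tested, and no filter gave 23 and 22 of 1188. Of the miRNAs of other organs edgeR called 1 and DESeq2 5 higher. RLE scaling moved the median of all 430 miRNAs from -0.23 to -0.41. The GC trend could be fitted for the 390 miRNAs with a mature sequence (90.7%), which leaves out miR-451a and miR-486-5p. Of 70 alternative differences of mean CPM, 67 were above 0; the others were the 0 of each mir-144 arm without its one library and miR-150-5p without EV replicate 2. The mir-126 arm shift ranged from 17 to 20.03 percentage points with a library left out and was 17.2 from summed counts. A minimum of 10 counts for arm pairs, added after seeing the data as was the 30, gave 17.6% of 142 pairs. No paired analysis was made: the labels give passages, which differ between the 2 fractions, and the replicate numbers used here only name the samples. With 3 libraries a group and as few as 396025 counts, 0 counts in whole cells mean only that a level above 7.58 CPM in the shallowest library, or 0.752 CPM in the deepest, was not found.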
